A study of Mus musculus with 2 samples.

Results

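Cholesterol genes were examined in differentiated C2C12 cells, a mouse myoblast line that fuses into myotubes when serum is lowered. The set holds 33 listed genes of cholesterol synthesis, of its control by SREBP (the sterol-sensing transcription factors), of export under LXR (the oxysterol-activated nuclear receptors) and of sterol transport, and 30 of them had a probe set with a single gene symbol, out of 18193 such genes on the array. A probe set is a block of short oligonucleotides on the array whose signals are combined into 1 value for a transcript. Acat2, Nr1h2 and Soat1 were not analysed here. The members were chosen by function, but with their differences between these arrays already known, namely sterol synthesis set against sterol export and a much lower Ch25h. All values below are therefore descriptions without a test.

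The study asked which genes differ when Lrrfip1, a gene for a nucleic acid-binding protein that interacts with the actin regulator Flii, is depleted by a short hairpin RNA. 1 array came from cells with the hairpin named shLrrfip1a and 1 from cells with the control hairpin, which the sample labels spell shLCUI and the design text spells shLUCI. Both cultures were grown with 10% fetal bovine serum and kept for 5 days in 2% horse serum, and cRNA was made from 6 ug of total RNA. The labels name a single hairpin, and whether the cells were a clone or a pool is not given in the sources used here. With 1 array per group no difference has a replicate check, and the spread between cultures is unknown. In RNA of a whole culture, fewer cells of a type and less RNA per cell cannot be told apart.

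The deposited intensities had medians of 53.5 (shLrrfip1a) and 51.4 (control). Lrrfip1 was lower on all 3 of its probe sets, at 62.2% to 70.6% of the control intensity. Of 10 myotube markers 9 lay above the median level of the array, with summed intensities of 17641 and 18838, and the neonatal myosin gene Myh8 was dim on both (33.2 and 35.0). Of the other marker lists, 5 of 6 fibroblast genes, 1 of 4 endothelial genes and none of 5 measured adipocyte genes lay above that level. The fibroblast sums were 12617 and 10068. Within them Dcn, which encodes the matrix proteoglycan decorin, read 3497 against 260 (a log2 difference of 3.67, the highest of all genes). Of the others above that level, Thy1 was higher (0.11), and Col1a1 (-0.42), Pdgfra (-0.35) and Col1a2 (-0.03) were lower. The dim Fap gave -0.04, and the median over the 6 genes was -0.04. The endothelial sums were 197 and 115, with the receptor gene Kdr at 118 against 48.0 (1.07). The part of these markers in the values below was not tested. On the 42 bacterial and phage spike-in probe sets the shLrrfip1a array was lower by a median of 0.16 on the log2 scale. Scaling to them raises every difference, so negative differences of that size can turn positive. With 1 array per group, positive differences of that size have no check either.

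Cells make cholesterol from acetyl-CoA by the mevalonate pathway, which leads to farnesyl diphosphate, and then by the sterol branch, which turns squalene into lanosterol and lanosterol into cholesterol. When sterols in the endoplasmic reticulum are scarce, SCAP carries the SREBP precursors to the Golgi, where they are cleaved to active factors that switch on nearly all of these enzymes. When sterols are plentiful, INSIG proteins hold SCAP back, and oxysterols such as the product of Ch25h both strengthen that hold and activate LXR, which induces the exporters Abca1 and Abcg1.

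Promoter sequences of 6 members are shown. Ch25h was taken for its largest difference, and the others for letter matches to elements that SREBP or LXR can bind. Binding at the matches was not tested. Each sequence is the 250 bases before the annotated gene start in RefSeq (build GRCm38.p6), 5′ to 3′ on the strand of the gene. Capitals in Hmgcs1, Msmo1 and Srebf2 mark the core of the sterol regulatory element, searched as TCACNCCA, in Hmgcs1 run together with an overlapping match to its shifted form CACNCCAC. Capitals in Insig1 mark the palindromic E-box CACGTG, which SREBP also binds, and, near the start, the shifted form on the other strand. In Abca1 they mark a CACGTG and then, on the other strand, a DR4 element, the paired half-site bound by LXR, searched as GGTNANNNNNGGTNA. The intervals are chr13:119690101-119690350 (plus strand) for Hmgcs1, chr8:64733579-64733828 (minus) for Msmo1, chr15:82147019-82147268 (plus) for Srebf2, chr5:28071162-28071411 (plus) for Insig1, chr4:53159896-53160145 (minus) for Abca1 and chr19:34475149-34475398 (minus) for Ch25h.
Hmgcs1: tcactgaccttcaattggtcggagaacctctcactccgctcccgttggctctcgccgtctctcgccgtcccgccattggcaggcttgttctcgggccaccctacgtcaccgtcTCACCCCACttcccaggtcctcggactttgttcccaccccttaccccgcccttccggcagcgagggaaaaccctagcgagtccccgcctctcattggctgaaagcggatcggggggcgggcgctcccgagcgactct
Msmo1: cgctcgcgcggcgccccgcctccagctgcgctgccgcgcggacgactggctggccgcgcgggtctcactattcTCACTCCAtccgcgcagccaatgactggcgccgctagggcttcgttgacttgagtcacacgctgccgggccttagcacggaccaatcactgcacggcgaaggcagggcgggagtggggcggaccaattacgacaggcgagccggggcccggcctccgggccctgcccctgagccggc
Srebf2: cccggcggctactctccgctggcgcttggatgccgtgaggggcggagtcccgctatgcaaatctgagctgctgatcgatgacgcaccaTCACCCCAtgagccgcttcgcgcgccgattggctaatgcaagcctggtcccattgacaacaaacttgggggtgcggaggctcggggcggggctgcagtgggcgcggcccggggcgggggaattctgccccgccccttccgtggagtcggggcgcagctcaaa
Insig1: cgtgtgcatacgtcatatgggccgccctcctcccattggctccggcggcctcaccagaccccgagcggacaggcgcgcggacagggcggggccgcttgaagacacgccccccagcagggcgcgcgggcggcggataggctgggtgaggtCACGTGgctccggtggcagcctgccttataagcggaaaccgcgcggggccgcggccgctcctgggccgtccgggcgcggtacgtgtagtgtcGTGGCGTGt
Abca1: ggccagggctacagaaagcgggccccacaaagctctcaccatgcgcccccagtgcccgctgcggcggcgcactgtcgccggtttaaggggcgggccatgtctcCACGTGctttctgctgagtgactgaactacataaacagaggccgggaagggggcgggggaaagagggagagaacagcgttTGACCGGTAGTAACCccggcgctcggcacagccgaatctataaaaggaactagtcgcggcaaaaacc
Ch25h: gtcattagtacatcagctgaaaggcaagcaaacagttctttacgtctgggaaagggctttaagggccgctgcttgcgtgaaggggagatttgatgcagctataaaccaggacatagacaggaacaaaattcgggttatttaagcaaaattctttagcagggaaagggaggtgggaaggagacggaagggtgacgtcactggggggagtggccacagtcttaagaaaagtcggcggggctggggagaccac

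Among genes above the level filter 29 members remained, and 23 of them were higher in shLrrfip1a, against 50.7% of all 11439 genes. A difference here is log2(intensity + 16) in shLrrfip1a minus that in the control, for the brightest probe set of a gene. The filter kept genes with a mean level over both arrays higher than that of the median probe set (an intensity near 52.5), and it left out Nr1h3. None of the 29 was at least 2-fold higher (0.664% of all genes were) and 1, Ch25h, was at least 2-fold lower (0.691% were). At 1.5-fold 5 members were higher, where 2.34% of all genes were, and again Ch25h was the 1 lower member, where 2.47% were. The members were chosen with these values known, so nothing is read from the counts. The median difference was 0.28 over the members and 0.00 over all genes.

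**Figure D1:**
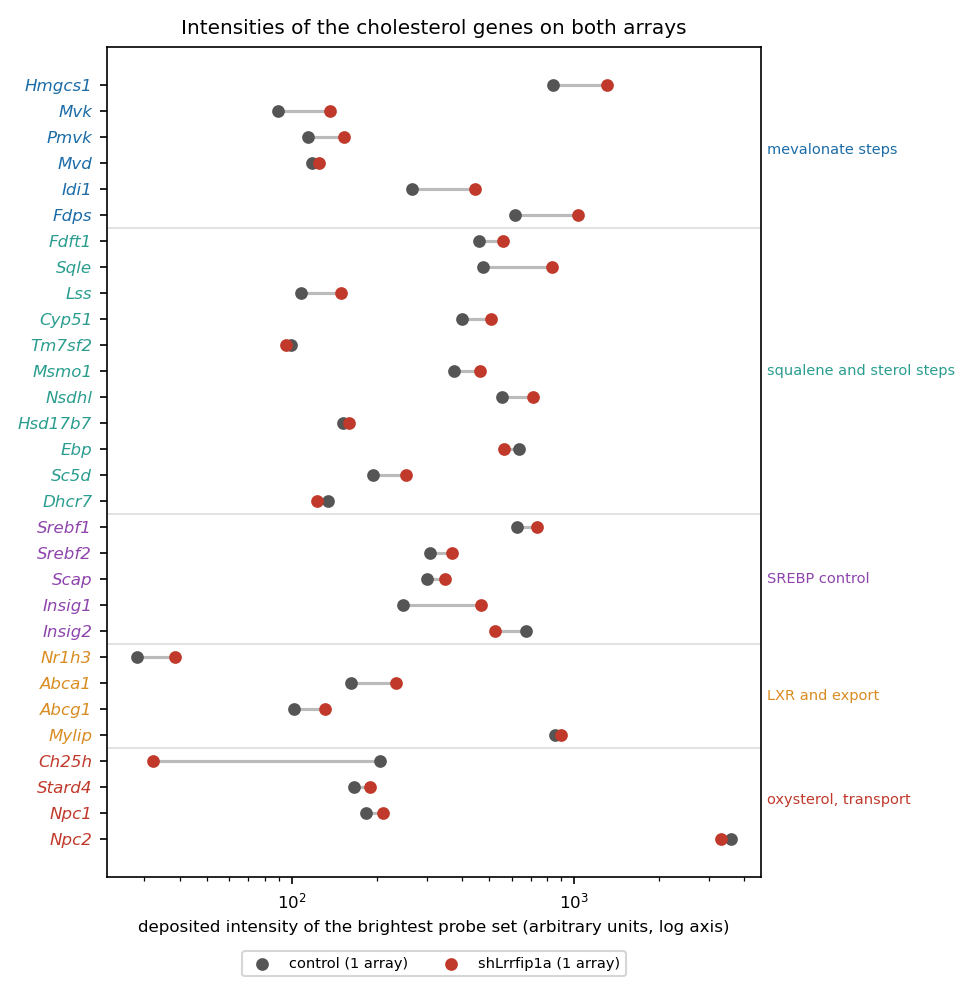
Deposited intensity of the brightest probe set of each of 30 members on the shLrrfip1a array (red) and on the control array (grey), 1 array each, on a log axis, grouped by role. Red lies to the right for most genes of synthesis and SREBP control, and far to the left for Ch25h (32.2 against 206).

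The largest difference in the set was that of Ch25h, whose enzyme adds a hydroxyl group to the cholesterol side chain and so makes an oxysterol. It read 32.2 in shLrrfip1a and 206 in the control, or 15.6% of the control intensity. The shLrrfip1a value lies below that array's median, while the control value is well above its own. The log2 difference was -2.20, and 0.0525% of all genes had a lower one. Ch25h is read by a single probe set, so no second probe set supports the value. Because it was dim in shLrrfip1a its size depends on the pseudocount, at -2.64 with 1 and -1.49 with 64. Ch25h is strongly expressed by activated macrophages. Of 6 macrophage markers 3 lay above the level filter, and the summed intensity over the 6 genes was 410 in shLrrfip1a and 354 in the control. Cd14, the lipopolysaccharide co-receptor gene, read 147 against 99.1 (0.50), Csf1r 131 against 130 (0.00) and Adgre1 58.0 against 57.7 (0.01). Below the filter, Ptprc, which encodes the leukocyte antigen CD45, read 33.6 against 19.9, Itgam 22.6 against 18.8 and Cd68 18.7 against 28.1, so Cd68 was the 1 lower marker of the 6. Without detection calls, values below the filter cannot be told from background. The part of the macrophage markers in the Ch25h value was not tested.

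All 6 measured genes of the mevalonate steps were higher in shLrrfip1a, with a median difference of 0.59 and a range of 0.08 to 0.73. Hmgcs1, which makes HMG-CoA at the entry of the pathway, read 1309 against 839 (0.63). Its other 3 probe sets above the filter gave 0.53, 0.77 and 0.60, so all 4 differed in the same direction by similar amounts. The mevalonate kinase Mvk read 137 against 88.9 (0.54), with 0.34 on its other probe set, and the next kinase, Pmvk, read 153 against 114 (0.38). Mvd, the decarboxylase that follows, was nearly level at 125 against 118 (0.08), with 0.10 on its other probe set.

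Idi1, which isomerises isopentenyl diphosphate, read 445 against 267 (0.71). Its other probe set read 170 against 77.1, a difference of 0.999 on the log2 scale and so just under the 2-fold size. Fdps, which condenses these units to farnesyl diphosphate, read 1032 against 616 (0.73), while its second probe set was near the floor on both arrays. Hmgcs1, Idi1 and Fdps thus made up 3 of the 5 members at least 1.5-fold higher.

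The squalene and sterol steps were less uniform, with 8 of 11 genes higher and a median of 0.30. Sqle, the squalene epoxidase that catalyses a rate-limiting step, had the largest difference of the synthesis genes, at 836 against 475 (0.80). Fdft1, the squalene synthase, read 559 against 458 (0.28) on its brightest probe set and 369 against 255 (0.51) on the next. Lss, which closes the rings to form lanosterol, read 149 against 107 (0.42), but 55.7 against 50.8 (0.10) on the next. Cyp51, the lanosterol demethylase, read 507 against 400 (0.33), with 0.61 on its other probe set. The probe sets of Fdft1, Lss and Cyp51 above the filter thus differed in the same direction, by unequal amounts. The brightest probe sets of Hmgcs1 and Fdft1 are of a kind (named with the suffix x) that can also bind other transcripts, and the next brightest of each has another design.

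On their brightest probe sets Nsdhl, Sc5d and Msmo1, which further demethylate and reshape the sterol, differed less than Sqle and about as much as Cyp51. Nsdhl, a sterol dehydrogenase, read 712 against 555 (0.35). Sc5d, the desaturase near the end of the pathway, read 253 against 194 (0.35), while its other probe set was level at 163 against 169 (-0.05). Msmo1, the methyl oxidase, read 464 against 375 (0.30), and its other probe set, at 57.0 against 63.5, gave -0.12. These were the 2 of 14 members with several probe sets above the filter that differed in both directions. The other 12 kept 1 direction, as did 60.3% of all genes with several such probe sets. Probe sets are no replicates, since they were hybridised to 1 RNA sample.

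The remaining sterol genes lay between -0.17 and 0.24 on every probe set above the filter. Hsd17b7, which reduces the keto group left by Nsdhl, read 160 against 152 (0.07), with 0.11 and 0.24 on its other probe sets above the filter. Tm7sf2, a sterol reductase, read 95.4 against 99.6 (-0.05), and Dhcr7, the reductase of the last step, read 123 against 134 (-0.11). The sterol isomerase Ebp was the lowest synthesis gene, at 562 against 635 (-0.17). Tm7sf2, Dhcr7 and Ebp turned positive, at 0.14, 0.09 and 0.02, when the arrays were scaled to the B. subtilis spike-ins. The 8 measured steps through Sqle were all higher, with a median of 0.59, and of the 9 later steps 6 were higher, with a median of 0.30. That division was chosen after the values were seen.

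**Figure D2:**
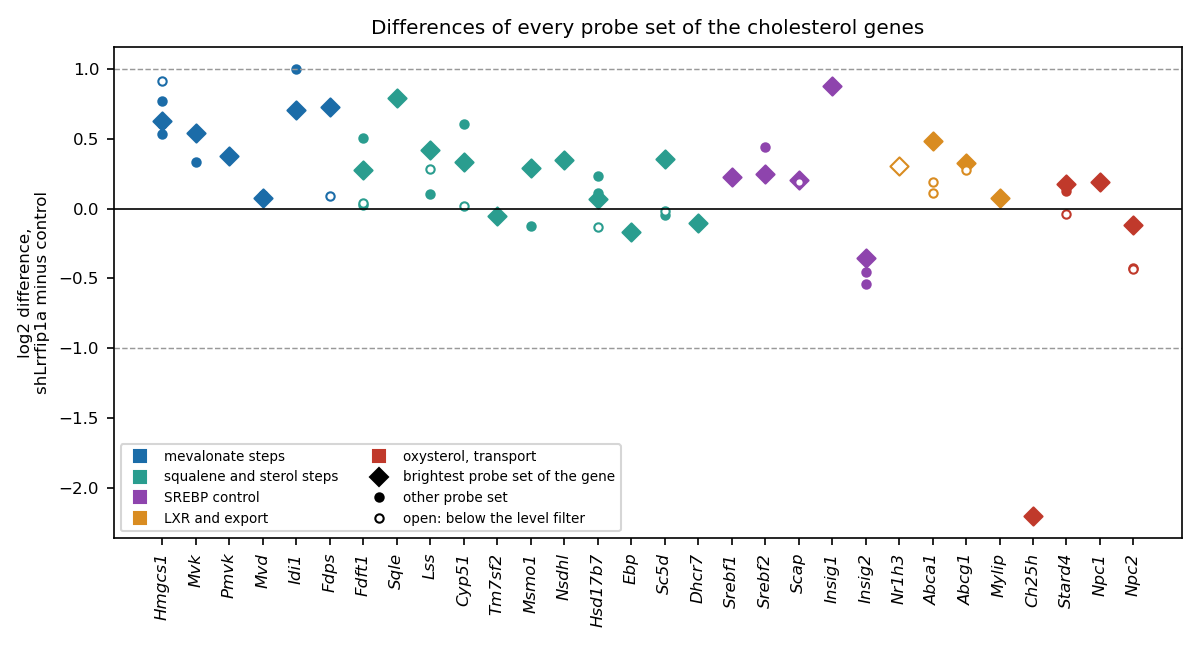
Log2 difference (shLrrfip1a minus control) of each of the 63 probe sets of the 30 members, in pathway order within each role. Diamonds are the brightest probe set of a gene, circles its other probe sets, and open symbols lie below the level filter. The dashed lines mark 2-fold, which Ch25h alone passes (-2.20), and 1 probe set of Idi1 lies just under it (0.999).

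Over all 17 measured synthesis genes the median difference was 0.35, and 14 were higher. Markers of dividing cells, in which membrane sterol demand is high, had summed intensities of 5067 in shLrrfip1a and 5079 in the control over 4 genes. Mki67 (-0.23), Top2a (-0.32) and Cdk1 (-0.17) were lower, and Pcna (0.29), the brightest of the 4, was higher. The median difference over the 4 was -0.20, and the part of these markers in the synthesis values was not tested.

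Among the genes of SREBP control the INSIG pair differed in opposite directions. Insig1, which retains SCAP in the endoplasmic reticulum and is itself an SREBP target, read 467 against 246, or 189% of the control. Its difference of 0.88 was the largest positive one of all members, and 0.918% of all genes had a higher one. Insig2, a paralog with the same role, was lower on all 3 of its probe sets, at 526 against 676 (-0.35), 447 against 618 (-0.45) and 258 against 384 (-0.54). The factors themselves were higher by small amounts. Srebf2, which mainly drives cholesterol genes, read 369 against 307 (0.25), with 0.44 on its other probe set. Srebf1, which mainly drives fatty acid genes, read 736 against 626 (0.23), and the escort Scap read 349 against 301 (0.21). Of all genes 14.8% had a higher difference than Srebf2, 16.8% a higher one than Srebf1 and 19.1% a higher one than Scap.

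The 3 LXR and export genes above the filter were higher as well. Abca1, which moves cholesterol out to lipid-poor apolipoprotein, read 233 against 162 (0.49), and its other 2 probe sets were below the level filter (0.19 and 0.11). Abcg1, which passes cholesterol to larger lipoproteins, read 131 against 101 (0.33). Mylip, an LXR-induced ubiquitin ligase that lowers lipoprotein uptake, was nearly level at 899 against 852 (0.08). The receptor gene Nr1h3 was dim on both arrays, at 38.7 and 28.2 (0.31). The median over the 3 genes above the filter was 0.33, against 0.35 for the synthesis genes, so both groups lay on the same side of 0. The difference between the group medians was not tested.

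**Figure D3:**
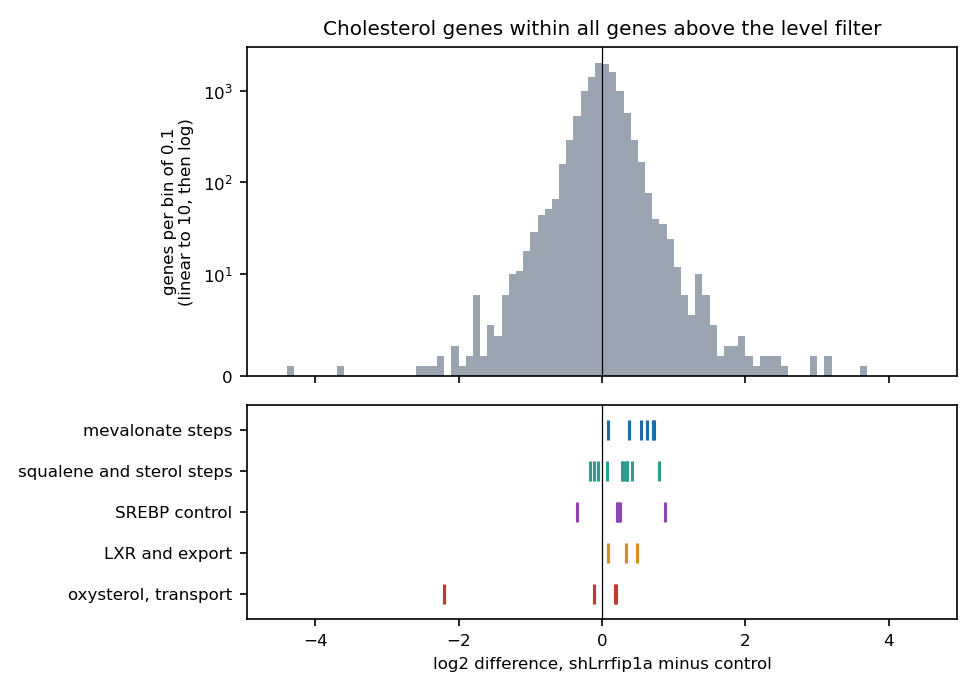
Upper panel, number of genes per bin of 0.1 of the log2 difference (shLrrfip1a minus control) for the 11439 genes above the level filter, on an axis that is linear to 10 and logarithmic above. Lower panel, the 29 members above the filter as ticks by role. All ticks but that of Ch25h lie between -0.35 and 0.88.

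The sterol transport genes Stard4, Npc1 and Npc2 lay between -0.12 and 0.19 on their brightest probe sets. Stard4, a soluble sterol carrier that is an SREBP target, read 189 against 166 (0.18), with 0.13 on its other probe set. Npc1, which exports cholesterol from lysosomes, read 210 against 182 (0.19). Its soluble partner Npc2 read 3308 against 3588 (-0.12) on its brightest probe set, with -0.13 and -0.43 on 2 others. The brightest Npc2 value turned to 0.08 with the B. subtilis scaling.

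Of 58 further genes of sterol and related lipid metabolism, 44 lay above the filter, and 20 of these were higher and 24 lower, with a median of -0.01. None reached 2-fold, where 0.664% of all genes were higher and 0.691% lower by that size. At 1.5-fold 2 were higher, where 2.34% of all genes were, and 3 were lower, where 2.47% were. The lists were chosen with earlier results of these data known, so nothing is read from the counts. Other synthesis genes had a median of -0.01 over 8. Acly, which supplies cytosolic acetyl-CoA, had the largest of these differences (600 against 463, 0.36, with -0.10 to 0.43 over its 4 probe sets). Pdss2, a subunit of the enzyme for the ubiquinone side chain, followed with -0.25 and Dhdds, of the dolichol branch, with 0.18. Of 12 uptake and fatty acid genes that SREBP can control, 5 were higher and 7 lower. In that list the fatty acid elongase Elovl6 (250 against 146, 0.71, and 0.87 on its other probe set) and the synthase Fasn (1176 against 747, 0.64) were higher. The lipoprotein receptor gene Vldlr read 415 against 749 and was lower on all 6 of its probe sets, by -0.83 to -0.41.

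In the list of SREBP processing and sterol-regulated degradation, Erlin2, which helps degrade ubiquitinated proteins of the endoplasmic reticulum, read 86.5 against 179 (-0.93). The ubiquitin ligase gene Rnf139 read 1207 against 849 (0.50), and Mbtps1, the first SREBP protease, 386 against 320 (0.26). Among LXR partners and targets, Apoe, the apolipoprotein that accepts exported cholesterol, read 50.2 against 106 (-0.88), opposite to Abca1 and Abcg1. Pltp, a phospholipid transfer protein gene, read 904 against 616 (0.54), and the receptor partner Rxra 183 against 119 (0.56) but -0.12 on its other probe set. The 11 genes of sterol transport, esters and oxysterols ranged from -0.30 for Gramd1a to 0.32 for the sterol hydroxylase Cyp27a1, with Hsd3b7 at -0.23.

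The promoters were also compared for motif content. The choice of members used no motif matches, but it took genes under SREBP control, and the motifs were chosen after the values were seen. The shares below are therefore descriptions. A window was found for 27 listed members, 6 of them with more than 1 window. A gene was counted if any of its windows held the motif on either strand. No window was used for Fdps, Fdft1, Sqle, Abcg1, Stard4 and Npc1, and the search left out all windows of a single chromosome. The CCAAT box, bound by NF-Y, a partner of SREBP, was held by 21 of the 27 and by 14 of 15 synthesis genes, against 37.5% of all 27025 genes with a window and 40.0% of 9239 such genes above the level filter. Mvk held 5 matches, the most of any member, and Hmgcs1 (shown above) held 3. Acat2, whose intensity was not analysed, was the synthesis gene without one. The GC box GGGCGG, bound by Sp1, was held by 22 of 27 members, against 35.4% of all genes and 63.6% of those above the filter.

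The sterol element core TCACNCCA was held by 3 of 27 members, by 4.20% of all genes and by 3.97% of those above the filter. These were Hmgcs1, 137 bases before its start, Srebf2 at 162 and Msmo1 at 177. The shifted form CACNCCAC, which can overlap it, was held by Hmgcs1, Acat2 and Insig1, by 6.05% of all genes and by 6.73% of those above the filter. The E-box CACGTG was held by 6 members, including Insig1 at 101 bases and Abca1 at 147, by 6.86% of all genes and by 10.1% of those above the filter. The DR4 form GGTNANNNNNGGTNA was held by 2 members, Abca1 at 67 bases and Srebf1 at 182, by 0.707% of all genes and by 0.476% of those above the filter. The Ch25h window shown above held none of the 6 motifs. These are matches of letters in windows of 250 bases, several forms were searched, and Idi1, with differences of 0.71 and 0.999, held no match to either sterol element form.

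**Figure D4:**
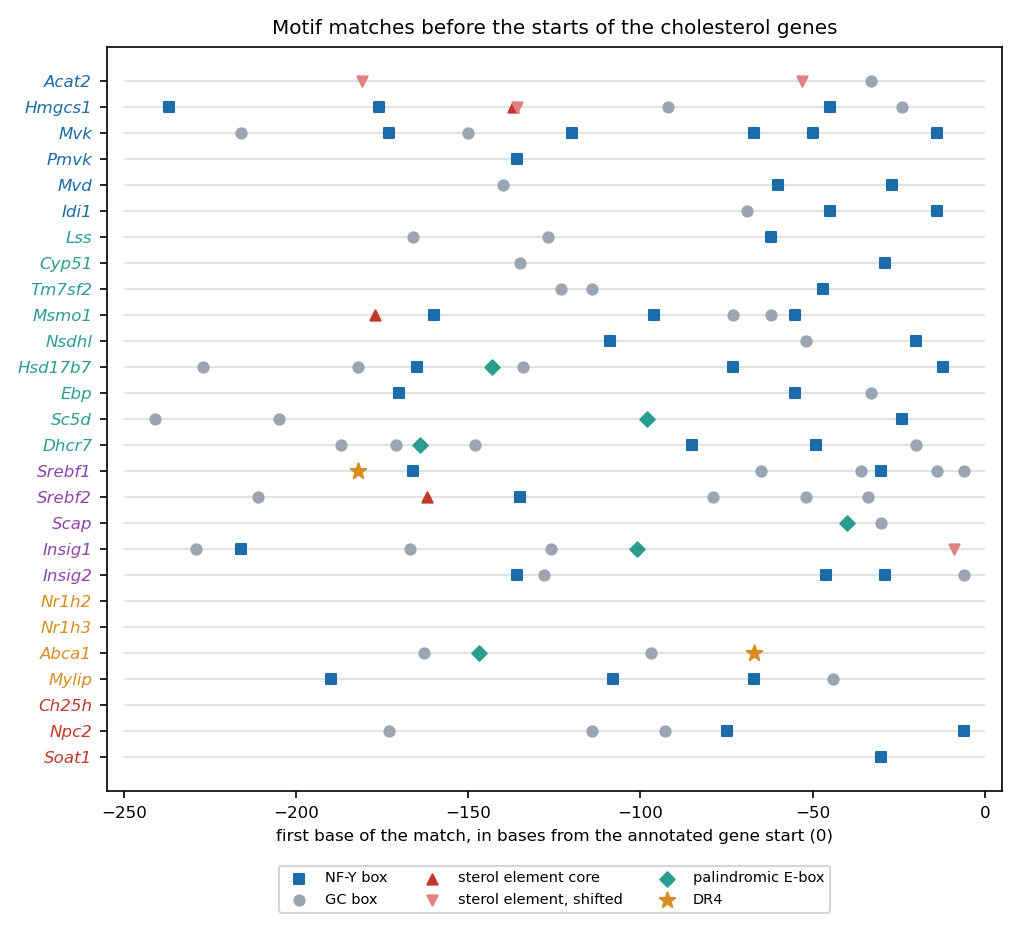
Position of motif matches in the 250 bases before the gene start for the 27 members with a window, coloured by role as in the other plots, with all windows of a gene drawn on 1 line. Blue squares are NF-Y boxes (CCAAT), present in 14 of 15 synthesis genes, red triangles the sterol element core in Hmgcs1, Msmo1 and Srebf2, and orange stars the DR4 form in Srebf1 and Abca1.

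**Figure D5:**
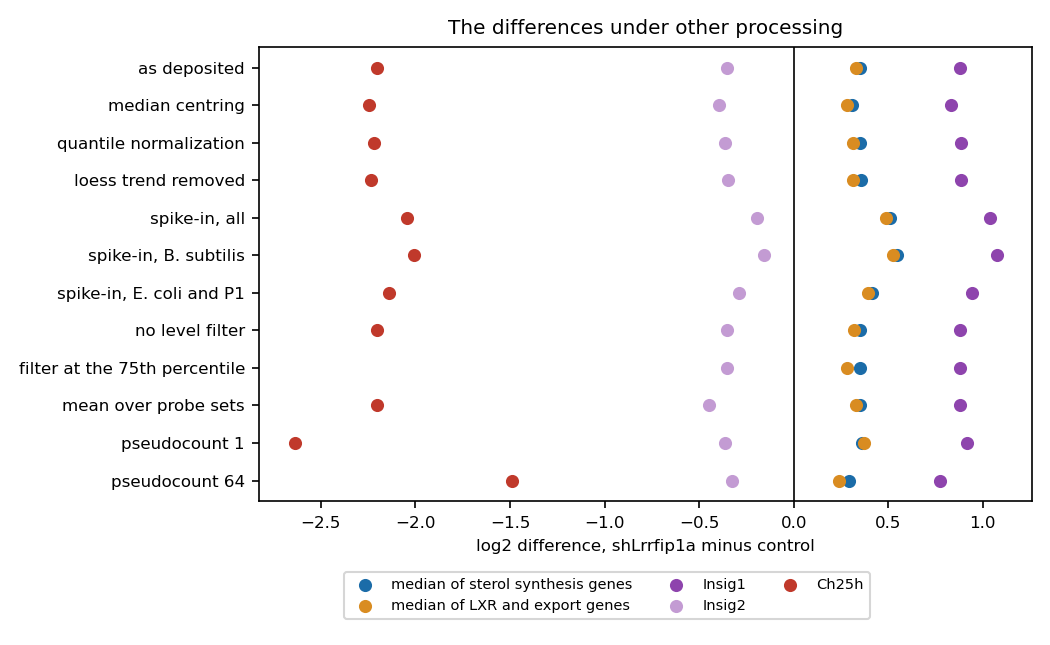
Log2 difference (shLrrfip1a minus control) of Ch25h, Insig1 and Insig2 and the medians of the sterol synthesis and of the LXR and export genes, under the deposited scale and 11 other settings. Ch25h ranges from -2.64 to -1.49 and has no value with the 75th percentile filter, and no other point changes its side of 0.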

How the data were processed

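Each array was deposited by the authors as linear intensities, 1 per probe set, with a floor of 1 and no detection calls. How they were summarised, background-corrected and scaled is not given in the sources used here, and the number of arrays limits the precision. Of 45101 probe sets 34945 had 1 gene symbol in the platform annotation and 932 had several, which named no gene. Values were used as log2(intensity + 16) on the deposited scaling, with the brightest probe set for each gene and a filter at the median level. Every listed member is named, and of each further list the 3 genes with the largest differences. The members, lists and alternatives were chosen with earlier results of these data known. The motifs and the division of the pathway at Sqle were chosen after the values were seen. The alternatives were 6 scalings, 2 filters, the mean over probe sets, pseudocounts of 1 and 64, and 1.5-fold and 3-fold thresholds. The procedure was tested on simulated data. Python 3.11.15, numpy 2.4.6, pandas 2.3.3 and statsmodels 0.14.6 were used.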

Additional observations from a re-analysis of the deposited data

How the results depend on the processing

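No paired analysis was possible because there was 1 array per group, and no array can be left out. The median of the synthesis genes lay between 0.29 and 0.55 and that of the LXR and export genes between 0.24 and 0.52 under all 11 other settings. Insig1 ranged from 0.77 to 1.07, Sqle from 0.74 to 0.99 and Insig2 from -0.45 to -0.16. Scaling to the spike-ins moved the median of all genes by a uniform shift, to 0.16 with all, 0.20 with B. subtilis and 0.07 with E. coli and P1 controls, and relative to it the members did not move. It made 1 member (Insig1) at least 2-fold higher instead of 0 with the first and second of these, and 3, 3 and 2 member probe sets at least 2-fold different instead of 1. The 75th percentile filter left out Ch25h, so that 0 members and 0 probe sets were 2-fold different. With a pseudocount of 1 there were 2 such probe sets. At 1.5-fold 5 members were higher, where 2.34% of all genes were, and 10 member probe sets differed. The shares of all genes called under the other scalings, and of all probe sets, were not computed. Nothing is therefore read from these counts.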
